A study of Mus musculus with 6 samples.

Results

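Calcium handling by the sarcoplasmic reticulum was examined through 10 genes, which are the release channel Ryr1 with its junctional partners Trdn, Jph1 and Jsrp1, the calcium pumps Atp2a1 and Atp2a2, the calsequestrins Casq1 and Casq2, the pump regulator Sln and the cytosolic calcium buffer Pvalb. The genes were selected by symbol from the deposited table of 13226 genes. All 10 were found, and all 10 passed the filter on low counts that left 13113 genes for testing. RNA-sequencing was performed on whole tibialis anterior (TA) muscles of male C57BL/6 mice, injected at 8 weeks of age and examined 7 days later. Of these muscles, 3 were administered AAV6:Yap-shRNA, an adeno-associated viral vector that carries a short hairpin RNA (shRNA) against the transcriptional co-activator Yap, and 3 a control vector. Both groups had thus received a vector of serotype 6 by intramuscular injection, and no uninjected muscle was analysed here. The control is an empty vector in the sample titles and AAV6:LacZ-shRNA in the vector field, and the muscles are called control below. Only the plasmid for the Yap hairpin is described as carrying an eGFP cassette under the CMV promoter, which is active in many cell types, so that effects of the hairpin and of the cassette cannot be told apart where the control lacks it. The description of the study places both treatments in contralateral legs of 3 animals, but equal replicate numbers are not stated to be one animal, nor is it stated how muscles were numbered. Because each library holds RNA of a whole muscle, fewer fibres of a type and less RNA per fibre cannot be told apart.

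When a muscle fibre is excited, the voltage sensor of the transverse tubule opens the ryanodine receptor of the adjoining reticulum, and calcium stored on calsequestrin enters the cytosol and starts contraction. Relaxation follows as parvalbumin takes up calcium and the SERCA pumps return it to the reticulum. Fast fibres, which make up most of the mouse TA, use the pump encoded by Atp2a1, calsequestrin 1 and abundant parvalbumin, whereas slow fibres and the heart use the pump encoded by Atp2a2 and more calsequestrin 2. Sarcolipin, the product of Sln, is a small membrane peptide that binds the pump and uncouples its ATP use from transport.

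Library totals were 11987167 to 12710393 counts, and the 10 most abundant genes took 27.0 to 28.5% of them. Levels are given in CPM, the reads of a gene scaled to library size, after normalisation by the TMM method of edgeR. Yap1, the targeted gene, stood at 71.2, 65.3 and 68.4 CPM in control 1 to 3 and at 32.0, 23.9 and 39.5 CPM in Yap-shRNA 1 to 3, or 46.5% of control. Its log2 fold change (Yap-shRNA over control) was -1.10 with a standard error (SE) of 0.16, with an adjusted p of 0.323 in the quasi-likelihood test of edgeR and of 5.05e-07 in DESeq2. The 6 genes listed for skeletal muscle (Ckm, Acta1, Myod1, Des, Ttn and Mb) had a summed level of 66340 to 82880 CPM in the libraries. To this sum Acta1 gave 35070 to 47990 CPM and Myod1 only 20.15 to 41.15 CPM. Control 1 and Yap-shRNA 3 stood apart from the others in tendon genes (Tnmd, Fmod and Scx), with sums of 319.4 and 289.6 CPM against 36.95 to 56.22 CPM in the other 4 libraries, and in 4 fibroblast genes, with 1903 and 2180 CPM against 965.5 to 1149 CPM. Log2 fold changes without these libraries are given beside the results for the 10 genes and for the related genes named below.

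The pumps and the calsequestrins are pairs of related genes, and their shared stretches bear on how reads can be assigned. The coding sequences of Atp2a1 and Atp2a2 were identical at 75.7% of 2973 aligned nucleotides, and those of Casq1 and Casq2 at 69.8% of 1170, in the transcripts of GENCODE M21 on GRCm38. The longest run common to both members of a pair is shown for each, because a read that lies within it cannot be assigned to one gene. The pump run of 44 nucleotides lies in exon 16 of 23 of Atp2a1 (chr7:126448186-126448229, minus strand) and in exon 15 of 20 of Atp2a2 (chr5:122460000-122460043, minus strand). The calsequestrin run of 25 nucleotides encodes part of the acidic tail and lies in exon 11, the last, of Casq1 (chr1:172210349-172210373, minus strand) and of Casq2 (chr3:102145342-102145366, plus strand). The coding sequence of Sln, all in exon 2 of 2 (chr9:53853473-53853568, plus strand), is printed whole, with the start and stop codons in capitals, because it shows how little coding sequence the least abundant member has.
Atp2a1 and Atp2a2: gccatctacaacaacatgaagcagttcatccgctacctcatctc
Casq1 and Casq2: acgatgacgatgatgatgacgacga
Sln coding sequence: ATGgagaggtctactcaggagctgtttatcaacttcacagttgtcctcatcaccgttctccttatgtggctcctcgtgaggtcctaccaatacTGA
Of all 25-nucleotide words in the coding sequences, 22 were common to both pumps and 1 to both calsequestrins, so that few stretches of this length are the same in both genes of a pair.

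RefSeq promoter windows, which run from 250 bases before to 50 after a start site on GRCm38.p6, were matched for 5 of the 10 genes (Atp2a1, Casq1, Casq2, Pvalb and Ryr1), in 6 windows, as Pvalb has 2. The windows of Casq1 (chr1:172219846-172220145, minus strand) and Casq2 (chr3:102086165-102086464, plus strand) are shown because these paralogs had the lowest log2 fold changes of the 10 genes. Capitals mark the E-box, CANNTG, the site bound by myogenic factors of the MyoD family.
Casq1 promoter: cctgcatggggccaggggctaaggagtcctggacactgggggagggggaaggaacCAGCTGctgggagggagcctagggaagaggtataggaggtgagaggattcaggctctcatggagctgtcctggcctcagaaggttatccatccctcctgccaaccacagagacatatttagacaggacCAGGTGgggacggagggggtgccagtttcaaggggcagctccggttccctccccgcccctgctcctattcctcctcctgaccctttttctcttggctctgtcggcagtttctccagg
Casq2 promoter: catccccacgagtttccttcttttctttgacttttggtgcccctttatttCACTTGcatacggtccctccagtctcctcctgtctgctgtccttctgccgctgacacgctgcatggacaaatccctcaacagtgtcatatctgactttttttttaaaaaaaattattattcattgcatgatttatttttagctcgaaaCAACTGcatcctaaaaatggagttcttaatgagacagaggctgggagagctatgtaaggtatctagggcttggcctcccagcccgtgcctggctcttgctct
The E-boxes of Casq1 began at -195 and -67 and those of Casq2 at -200 and -52, counted from a start site at +1. At least 1 E-box was present in 4 of the 6 windows, those of Atp2a1, Casq1, Casq2 and 1 of the 2 of Pvalb, against 64.1% of the 12065 windows of tested genes and 72.3% of all 32851 windows. The M-CAT motif, CATTCC, which TEAD factors bind, was searched on both strands and occurred in 0 of the 6 windows, against 12.3% of windows of tested genes and 14.7% of all. Neither CTANNNNTAG, the form of the MEF2 motif that was searched (3.14% of windows of tested genes, 3.69% of all), nor TATAAA (7.39% and 13.6%) was found in the 6 windows. Both were searched on both strands. These letters say nothing of other forms of the MEF2 motif or of sites outside the windows.

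Together the 10 genes took 4.78, 4.27 and 4.55% of all counts in control 1 to 3 and 4.31, 4.16 and 4.64% in Yap-shRNA 1 to 3. Atp2a1 alone supplied 52.5 to 59.9% of the reads of the 10 genes. To compare levels between genes, CPM were divided by the length of all annotated exons of a gene in kilobases. On this scale Pvalb was the most abundant, with a level of 10113 to 12331 CPM per kilobase in control muscles, followed by Atp2a1 (6657 to 7821) and Casq1 (1793 to 1932). Jsrp1 (214.1 to 389.1), Trdn (102.4 to 126.5), Ryr1 (103.7 to 126.9) and Jph1 (62.3 to 75.9) came next. The ranges of Trdn and Ryr1 overlapped in both groups, so that their order was not set on this scale. It depended on the length used. Per kilobase of the principal transcript alone, control means were 234.0 CPM for Trdn and 159.4 CPM for Ryr1. Casq2 (24.3 to 28.8), Atp2a2 (4.65 to 8.25) and Sln (1.49 to 2.89) were the least abundant. All other neighbours in the order were apart in the control group, and in Yap-shRNA muscles as well, except that Sln (0.525 to 7.81 CPM per kilobase) spread across the range of Atp2a2 (4.94 to 7.72) there.

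**Figure D1:**
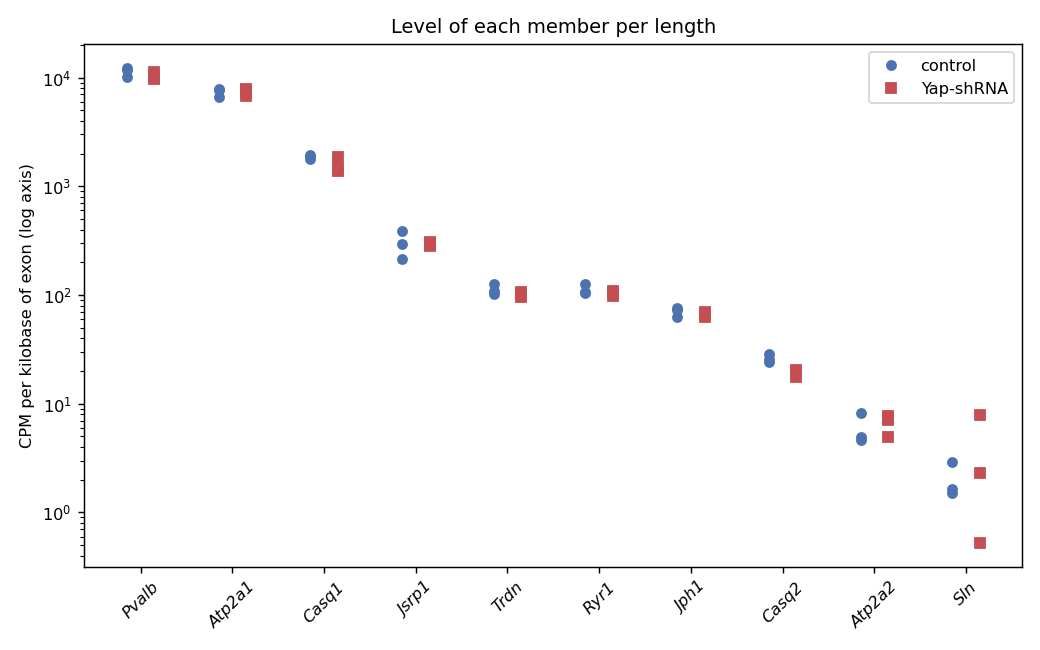
Level of each of the 10 genes in CPM per kilobase of exon (log axis), with 1 point per library, circles for the 3 control and squares for the 3 Yap-shRNA muscles. The levels ran from about 11370 in Pvalb to 2.01 in Sln (control means), and only Trdn and Ryr1 overlapped as neighbours among control muscles.

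Whether Yap knockdown altered these transcripts was asked by comparing the 3 Yap-shRNA with the 3 control muscles. None of the 10 genes had an adjusted p under 0.05 by the quasi-likelihood test of edgeR, nor by DESeq2, the likelihood ratio test or limma-voom. Over all genes tested, 0.0% passed by the quasi-likelihood test and 0.0381% by both DESeq2 and the likelihood ratio test, a background against which 0 of 10 says little about these genes. At an unadjusted p under 0.05, 1 of the 10 (Casq2) was called, against 1.61% of all genes. Estimates were below 0 in 8 of the 10 genes and above 0 in Atp2a2 and Sln. The median log2 fold change was -0.087, beside -0.0025 over all genes tested, of which 51.0% lay below 0. Without control 1 and Yap-shRNA 3 the median of the 10 genes was -0.19, and again 0 of them passed the threshold.

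**Figure D2:**
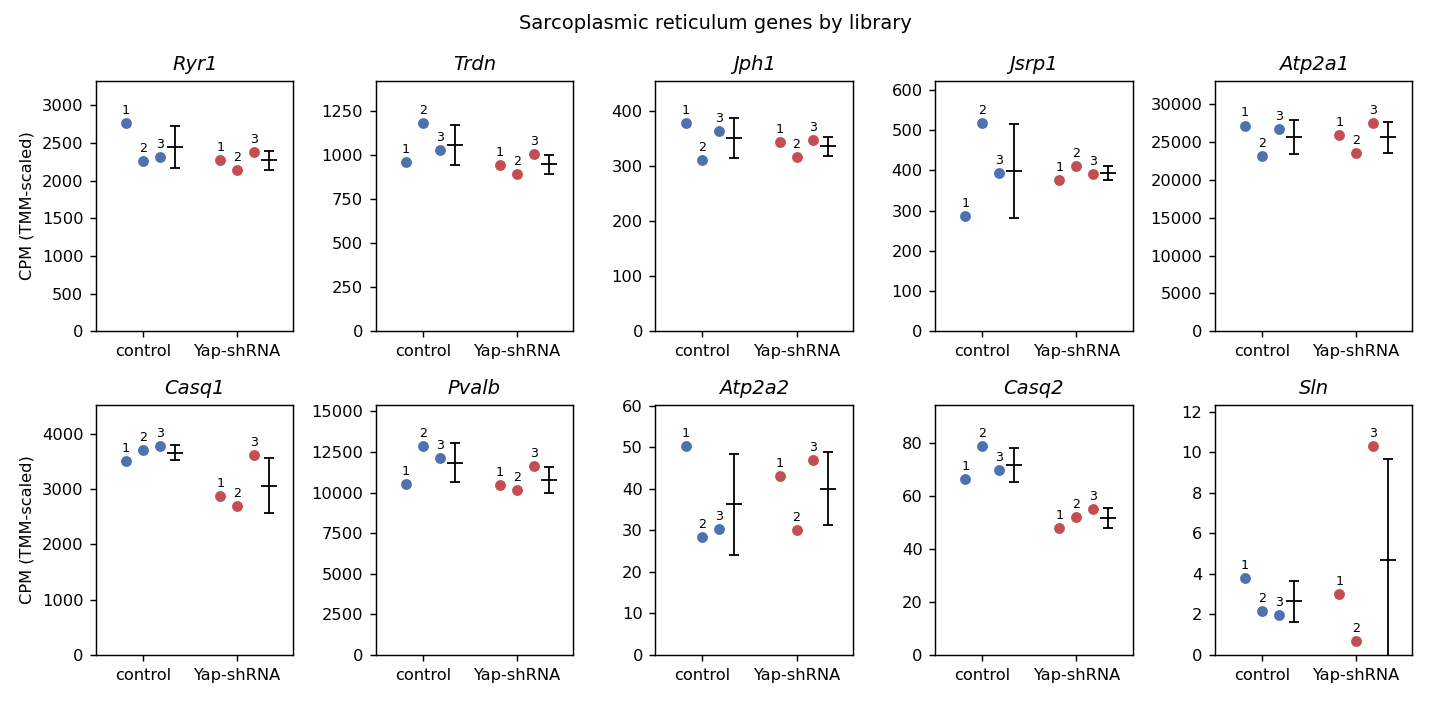
TMM-scaled CPM of each of the 10 genes in every library (points numbered by replicate, linear axes from 0), with the mean and SD of the 3 muscles of each group beside them. Casq2 is the gene in which the groups do not overlap, and Sln has 1 high library, Yap-shRNA 3 at 10.3 CPM, whose group SD reaches below 0 and is drawn to the axis.

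**Figure D3:**
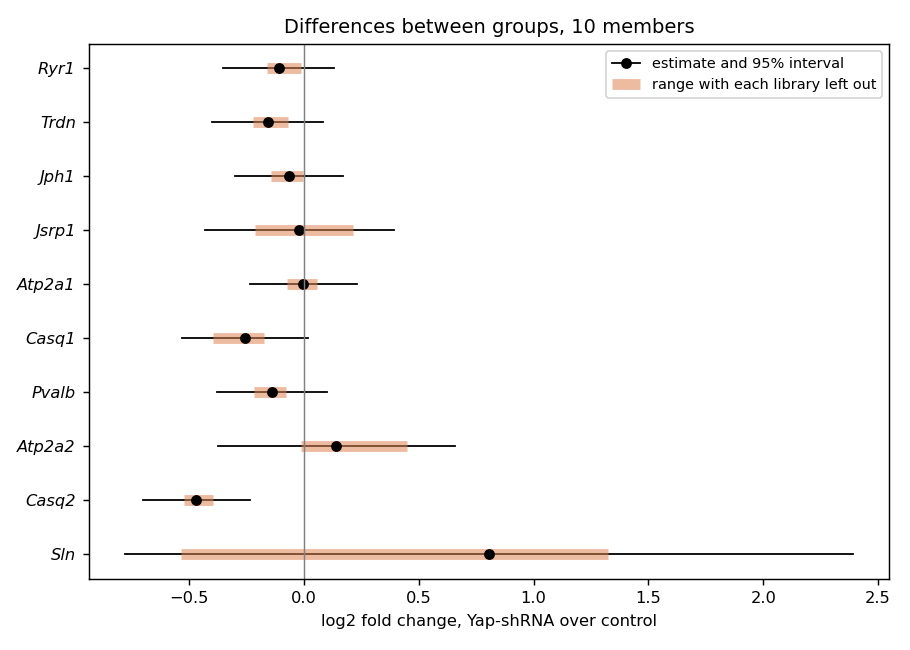
Log2 fold change (Yap-shRNA over control) of the 10 genes with its 95% interval from the quasi-likelihood fit (black) and the range of estimates when each library was left out in turn (orange). The interval of Casq2 (-0.70 to -0.24) does not reach 0, the other 9 do, and the range of Sln, from -0.53 to 1.32, is the widest.

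The release channel and the proteins that hold it at the junction had estimates below 0 that were within the spread between muscles, and none of the 4 genes passed the threshold under any setting. Ryr1, the calcium release channel (chr7:29003344-29125179, minus strand, 106 exons in its principal transcript), was at 2771, 2265 and 2309 CPM in the control group and 2278, 2144 and 2388 CPM in Yap-shRNA muscles. Control 1 was the highest library, and the other 5 lay close together. Ryr1 had a log2 fold change of -0.11 (SE 0.11, 95% interval -0.35 to 0.13), which was -0.011 without control 1 and -0.048 without both control 1 and Yap-shRNA 3. Trdn (chr10:33080554-33476709, plus strand) encodes triadin, which anchors calsequestrin to the channel. Its values were 957.6, 1183 and 1027 CPM in control and 945.3, 892.1 and 1003 CPM in Yap-shRNA muscles. Only Yap-shRNA 3 lay within the control range, and the log2 fold change was -0.16 (SE 0.11, 95% interval -0.40 to 0.084). It was -0.068 without control 2 and -0.27 without control 1 and Yap-shRNA 3.

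Jph1 (chr1:16964560-17097889, minus strand) encodes junctophilin 1, which bridges the reticulum and the transverse tubule. It was at 379.1, 311.2 and 364.2 CPM in the control group and at 344.3, 317.0 and 347.4 CPM in Yap-shRNA muscles, all 3 of them inside the control range (log2 fold change -0.064, SE 0.10). Without control 1 this estimate was -0.0062, and -0.030 without control 1 and Yap-shRNA 3. Jsrp1 (chr10:80808496-80813498, minus strand) encodes the junctional protein JP-45, which binds calsequestrin and the voltage sensor. Control muscles ranged widely, at 285.4, 518.7 and 392.6 CPM, whereas Yap-shRNA muscles were at 376.4, 412.2 and 391.6 CPM. The coefficient of variation was 29.3% in control and 4.57% in Yap-shRNA muscles, a difference in spread that was not tested. Its log2 fold change was -0.020 (SE 0.18), and the estimate turned above 0 in 4 of 13 alternative settings, among them 0.21 without control 2, 0.012 without Yap-shRNA 1 and 0.021 with limma-voom. It was -0.21 without control 1 and Yap-shRNA 3. In this group of 4 genes, 0 were above and 4 below 0, with a median log2 fold change of -0.087.

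The genes of the fast reticulum had estimates from near 0 for Atp2a1 to -0.26 for Casq1. Atp2a1 (chr7:126445858-126463108, minus strand), which encodes the fast pump SERCA1, was at 27194, 23147 and 26777 CPM in control and 25958, 23496 and 27562 CPM in Yap-shRNA muscles. The mean of Yap-shRNA muscles was 99.9% of control, and the log2 fold change of -0.0019 (SE 0.10) had a 95% interval of -0.24 to 0.23. Its sign changed with the scaling and with the library left out (to 0.041 without control 1, 0.028 without control 3 and 0.058 without Yap-shRNA 2). For Atp2a1 the log2 fold change was -0.013 without control 1 and Yap-shRNA 3. Of its exon length, 21.9% (763 nucleotides) also belongs to exons of Rabep2 on the opposite strand, and no strand setting was stated for the counting.

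Casq1 (chr1:172209894-172219868, minus strand) encodes the main calcium-storing protein of fast fibres. It was at 3498, 3706 and 3769 CPM in the control group and at 2869, 2693 and 3622 CPM in Yap-shRNA muscles. Yap-shRNA 1 and 2 were below every control muscle, while Yap-shRNA 3 was inside the control range. The mean was 83.7% of control, with a log2 fold change of -0.26 (SE 0.12, 95% interval -0.53 to 0.016), with an adjusted p of 1.00 in the quasi-likelihood test. Without Yap-shRNA 3 the log2 fold change of Casq1 was -0.40, and without both control 1 and Yap-shRNA 3 it was -0.43, at adjusted p of 1.00 and 0.717 by the same test. Exons of an antisense gene cover 8.0% of the exon length of Casq1. Pvalb (chr15:78191114-78206400, minus strand) encodes parvalbumin. Its values were 10528, 12837 and 12153 CPM in control and 10476, 10127 and 11647 CPM in Yap-shRNA muscles. Yap-shRNA 1 and 2 lay just under control 1, the lowest control, and Yap-shRNA 3 lay among the controls. Pvalb had a log2 fold change of -0.14 (SE 0.11, 95% interval -0.38 to 0.10), and -0.28 without control 1 and Yap-shRNA 3. Each of the 9 fast contractile genes, such as Myh4 and Tnnt3, also had a log2 fold change below 0, as did 51.0% of all genes tested. Of the 9, 0 passed the threshold by the quasi-likelihood test and 0 had an unadjusted p under 0.05. Their median was -0.13, beside -0.0025 over all genes tested. The summed level of these 9 genes was 88390 to 104400 CPM in control and 86510 to 97030 CPM in Yap-shRNA muscles, and its part in the values of Casq1 and Pvalb was not tested.

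Casq2 (chr3:102086415-102146514, plus strand) encodes calsequestrin 2, the storage protein of cardiac and slow muscle. Control muscles held 855, 943 and 853 reads of this gene, against 573, 679 and 694 with Yap-shRNA. Scaled levels were 66.5, 78.9 and 70.0 CPM against 48.1, 52.2 and 55.3 CPM. Every Yap-shRNA muscle lay below every control muscle, and Casq2 was the only gene of the 10 without overlap between the groups. Such a separation with Yap-shRNA lower was present in 2.73% of all genes tested, and the opposite one in 2.54%. Means were 71.8 ± 6.38 CPM in control and 51.9 ± 3.65 CPM in Yap-shRNA muscles (SD, n = 3), which is 72.2% of control. Casq2 had a log2 fold change of -0.47 (SE 0.10, 95% interval -0.70 to -0.24). Its unadjusted p was 0.00127 and its adjusted p 1.00 by the quasi-likelihood test of edgeR over 13113 genes, and the adjusted p was 0.464 by DESeq2 and 0.298 by the likelihood ratio test. The exact permutation test gave p = 0.10 (two-sided), the smallest that 3 muscles against 3 allow.

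The estimate for Casq2 was below 0 under all 13 alternative settings, and from -0.52 to -0.40 when each library was left out. Without control 1 and Yap-shRNA 3 it was -0.57. On CPM that were not TMM-scaled, Casq1 and Trdn did not overlap either, so that 3 of the 10 genes were lower without overlap, against 2.15% of all genes on that scale. The 4 smooth muscle genes Acta2, Myh11, Tagln and Cnn1, which mark the vessel wall, had log2 fold changes below 0 as well. Their summed level was 145.5, 221.7 and 122.7 CPM in control and 129.8, 85.73 and 158.9 CPM in Yap-shRNA muscles, with overlap between the groups, and its part in the level of Casq2 was not tested. Of 5 heart genes, Myh6 alone was among the genes tested, at 1.15 to 3.85 CPM.

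The share of Casq2 among calsequestrin reads needs no scaling between libraries. It was 1.87, 2.08 and 1.82% in control and 1.65, 1.90 and 1.51% in Yap-shRNA muscles. The groups overlapped, as Yap-shRNA 2 was above control 1 and control 3. Mean shares were 1.93 ± 0.140% and 1.68 ± 0.200% (SD, n = 3), a difference of -0.241 percentage points (exact permutation test, two-sided, p = 0.30). Per kilobase of exon the difference was -0.173 points, with the same p. Casq2 thus had its lowest share in Yap-shRNA 3, the Yap-shRNA library in which the counts of both calsequestrins were highest.

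Atp2a2 (chr5:122453513-122502225, minus strand) encodes SERCA2, the pump of slow and cardiac muscle and, as another isoform, of most other cell types. It was at 50.2, 28.3 and 30.3 CPM in control and 43.0, 30.0 and 47.0 CPM in Yap-shRNA muscles. Control 1, Yap-shRNA 1 and Yap-shRNA 3 were high and the other 3 low, with members of both groups on each side. The log2 fold change of Atp2a2 was 0.14 (SE 0.23, 95% interval -0.38 to 0.66), and it ranged from -0.011 without control 2 to 0.45 without control 1. Reads of Atp2a2 were 0.184, 0.122 and 0.113% of pump reads in control and 0.166, 0.128 and 0.170% in Yap-shRNA muscles, a difference of 0.0147 percentage points (exact permutation test, two-sided, p = 0.70). Per kilobase of exon the difference in share was 0.00841 points. Control 1 and Yap-shRNA 3, the highest libraries for Atp2a2, were also the highest for the tendon and fibroblast genes. Without these 2 libraries the log2 fold change of Atp2a2 was 0.32, and the part of other cell types in its level was not tested.

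Sln (chr9:53850164-53854560, plus strand) was the least abundant of the 10 genes and the most variable. Only 49, 26 and 24 reads were counted on it in control 1 to 3, and 36, 9 and 129 in Yap-shRNA 1 to 3, or 3.81, 2.17 and 1.97 CPM against 3.02, 0.691 and 10.3 CPM. Yap-shRNA muscles held both the lowest and the highest library of the 6, and the control muscles lay between them. The coefficient of variation was 107% in Yap-shRNA and 38.1% in control muscles, and 0.458% of all genes tested varied more over the 6 libraries. Sln had a log2 fold change of 0.81 (SE 0.71, 95% interval -0.78 to 2.39). It was 0.11 with limma-voom, -0.53 without Yap-shRNA 3, and -0.18 without both control 1 and Yap-shRNA 3, so that its direction rested on a single library. That library also had the second highest tendon sum, the highest fibroblast sum and the highest sum of 7 slow contractile genes. The slow sum was 123.8 CPM there, against 100.1 and 78.58 CPM in Yap-shRNA 1 and 2 and 103.5, 111.6 and 93.25 CPM in control 1 to 3. Of the 7 genes, Myl3 (67.7 CPM in Yap-shRNA 3), Myl2 and Tnnt1 were highest in that library. Tnni1 was highest in control 1 (15.4 CPM against 12.68 CPM in Yap-shRNA 3), and Myh7, Tnnc1 and Tpm3 were highest in Yap-shRNA 1. Of 4 adipocyte genes, Adipoq (16.35 CPM), Plin1 (10.77 CPM) and Cfd (50.08 CPM) were also highest in Yap-shRNA 3. The other 5 libraries held at most 4.75 CPM of Adipoq and 3.27 CPM of Plin1. The remaining gene, Fabp4, was lowest in Yap-shRNA 3, at 205.2 CPM against 218.2 to 257.7 CPM in the other libraries. The part of these lists in the level of Sln was not tested. Of the slow contractile genes, 3 had a log2 fold change above and 4 below 0, with 0 past the threshold by the quasi-likelihood test and 1 (Myl2) at an unadjusted p under 0.05. The median log2 fold change of Atp2a2, Casq2 and Sln was 0.14, and it ran from -0.52 without Yap-shRNA 3 to 0.45 without control 1. It was -0.18 without control 1 and Yap-shRNA 3, and -0.16 with at least 10 counts in every library, where Sln drops out. The median was -0.14 for Atp2a1, Casq1 and Pvalb, and -0.28 without control 1 and Yap-shRNA 3.

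**Figure D4:**
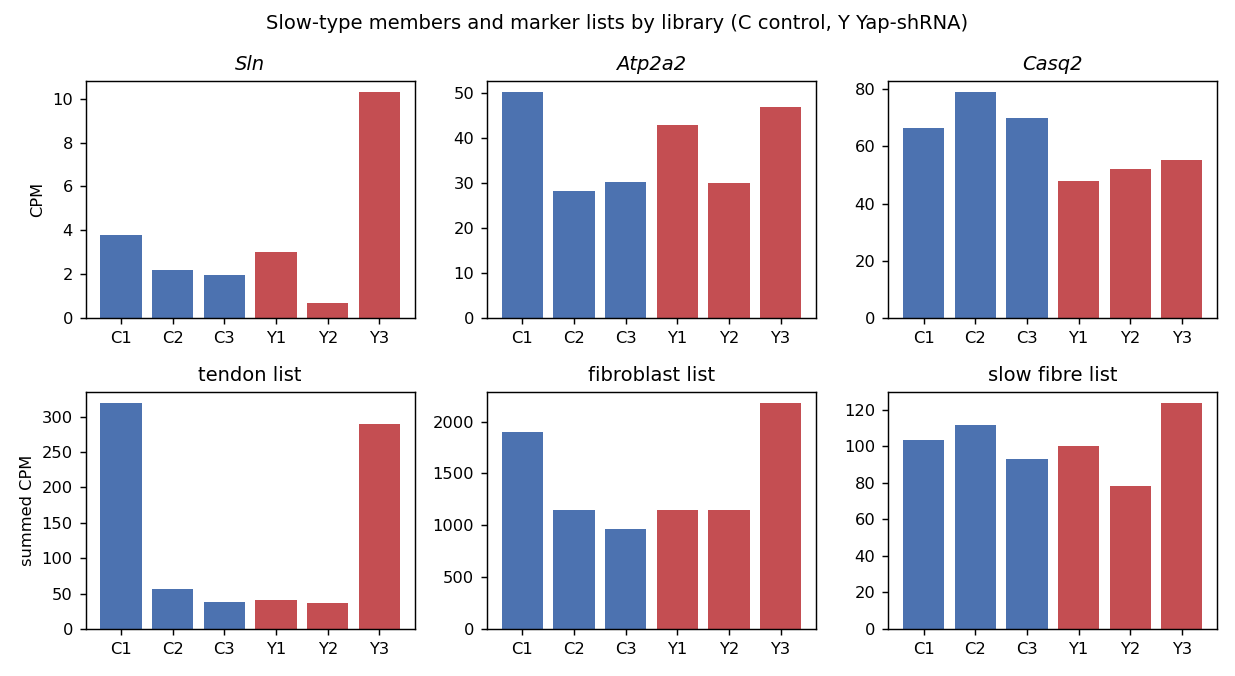
Upper row, TMM-scaled CPM of Sln, Atp2a2 and Casq2 in each library (bars from 0; C, control; Y, Yap-shRNA; numbers are replicates). Lower row, summed CPM of the tendon, fibroblast and slow fibre lists in the same libraries, in which C1 and Y3 have the highest tendon and fibroblast sums and Y3 also the highest Sln (10.3 CPM).

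Genes that followed the same profile over the 6 libraries were sought for Sln and Atp2a2, the members with the largest SD of log2 CPM (1.19 and 0.368). Likeness was the root mean square difference of log2 CPM after centring each gene on its mean. Closest to Sln were Vipr2 (0.459), Plppr3 (0.479) and Myoc (0.486), which are large distances beside its SD. Myoc, which encodes the secreted protein myocilin, was at 34.4, 25.8 and 22.7 CPM in control and 37.2, 18.6 and 78.6 CPM in Yap-shRNA muscles, again with Yap-shRNA 3 highest and Yap-shRNA 2 lowest. Vipr2 had 3 to 30 counts in a library and Plppr3 4 to 22, so that counting error weighs on both. Closest to Atp2a2 were Fam49a (0.0510), BC048403 (0.0656) and Adam33 (0.0701), of which Adam33, a metalloprotease gene, was at 8.71, 4.94 and 5.91 CPM in control and 7.72, 5.76 and 8.21 CPM in Yap-shRNA muscles. These profiles were picked as the nearest of 13113 genes and carry no test.

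The wider calcium machinery was described by 46 further genes in 8 roles, of which 44 were tested (Ryr3 and Strit1 were not among the genes tested). None of the 44 passed the threshold, by the quasi-likelihood test, DESeq2 or the likelihood ratio test, and 0 had an unadjusted p under 0.05, against the 1.61% of all genes given above. The log2 fold change was above 0 in 9 and below 0 in 35, with a median of -0.053. Over all genes tested, 51.0% lay below 0 and the median was -0.0025. By role, 1 of 5 voltage sensor genes, 2 of 9 junctional genes, 2 of 6 lumenal genes, 0 of 3 pump genes, 2 of 6 store and InsP3 receptor genes, 0 of 5 clearance genes, 2 of 8 kinase and calcineurin genes and 0 of 2 anchor genes were above 0.

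**Figure D5:**
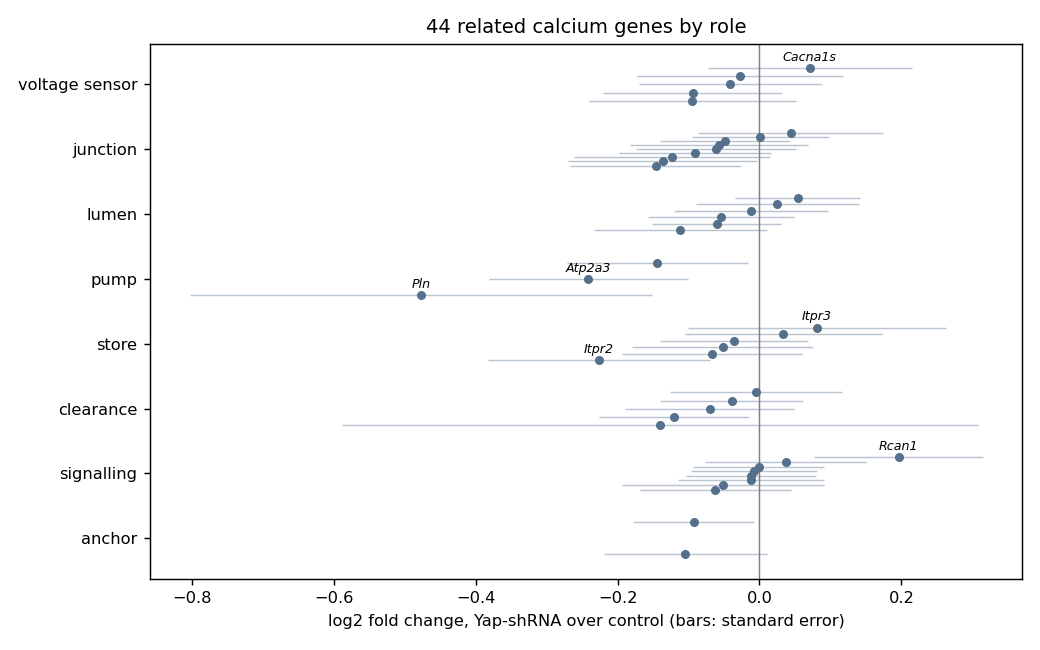
Log2 fold change (Yap-shRNA over control, bars show the SE) of the 44 related calcium genes, grouped by role, with the 3 highest and 3 lowest named. Of the points, 35 lie below 0 and 9 above, where 51.0% of all genes tested lie below 0. The lowest, Pln at -0.48, has a wide error.

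The 3 highest of these genes were Rcan1, Itpr3 and Cacna1s. Rcan1 encodes an inhibitor of calcineurin whose transcription calcineurin induces. It was at 60.1, 76.2 and 65.4 CPM in control and 70.6, 75.0 and 85.4 CPM in Yap-shRNA muscles (log2 fold change 0.20, SE 0.12), with overlap between the groups. Cacna1s encodes the pore of the voltage sensor that opens Ryr1. Its values of 676.7, 443.2 and 561.8 CPM in control and 597.5, 559.0 and 610.0 CPM in Yap-shRNA muscles gave a log2 fold change of 0.071 (SE 0.14), and its sign changed without control 2 (-0.073). Both Cacna1s and Ryr1, which face each other at the junction, were highest in control 1. Other voltage sensor and junctional genes did not go one way there. Cacna2d1 (433.7 CPM) and Jph1 (379.1 CPM) were also highest in control 1. In contrast, Cacnb1 (198.3 CPM), Stac3 (221.5 CPM), Jph2 (773.8 CPM) and Jsrp1 (285.4 CPM) were lowest in it. Itpr3, an InsP3 receptor gene, was at 4.94 to 5.91 CPM in control and 4.78 to 6.30 CPM in Yap-shRNA muscles (log2 fold change 0.081, SE 0.18).

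The 3 lowest were Pln, Atp2a3 and Itpr2. Pln encodes phospholamban, the pump inhibitor of slow and cardiac muscle, and stood at 2.33, 4.60 and 2.13 CPM in control and 2.18, 1.84 and 2.47 CPM in Yap-shRNA muscles. Its log2 fold change of -0.48 (SE 0.33) was -0.047 without control 2, the 1 high library. Atp2a3, the pump gene of non-muscle cells, was at 16.1, 17.0 and 15.6 CPM in control and 14.9, 11.4 and 14.9 CPM in Yap-shRNA muscles, so that the groups did not overlap and Yap-shRNA 2 lay farthest from control 1 to 3 (log2 fold change -0.24, SE 0.14). Itpr2 was at 7.55, 9.45 and 9.60 CPM in control and 7.55, 7.68 and 7.50 CPM in Yap-shRNA muscles (log2 fold change -0.23, SE 0.16). Without control 1 and Yap-shRNA 3 the log2 fold changes were 0.041 for Rcan1, 0.034 for Itpr3 and 0.20 for Cacna1s. Those of Pln, Atp2a3 and Itpr2 were then -0.74, -0.31 and -0.32.

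Markers of other cells and states were summed as a check on the libraries, with 0 genes of any list past the threshold by the quasi-likelihood test. The 8 macrophage genes all had log2 fold changes above 0, where 51.0% of all genes tested lay below 0. Their sums were 85.04 to 209.7 CPM in control and 146.9 to 190.3 CPM in Yap-shRNA muscles. Endothelial genes were at 264.4 to 328.2 and 287.1 to 315.0 CPM, adipocyte genes at 238.2 to 269.3 and 232.4 to 282.4 CPM (mostly Fabp4, with a median log2 fold change of 1.03 over the 4 genes), and Schwann cell genes at 52.83 to 103.0 and 67.38 to 92.49 CPM. The satellite cell genes Pax7 and Myf5 summed to 4.43 to 6.65 and 5.28 to 5.50 CPM. The 6 genes known to rise in denervated muscle, in which calcium handling is also altered, summed to 53.37, 32.46 and 32.42 CPM in control and 63.49, 28.73 and 64.19 CPM in Yap-shRNA muscles. Denervation genes were thus highest in the same 3 libraries as Atp2a2 and Sln, namely control 1, Yap-shRNA 1 and Yap-shRNA 3, and their part in those levels was not tested. Log2 fold changes were above 0 in 5 of 6 denervation, 4 of 4 fibroblast, 3 of 4 endothelial and 3 of 4 adipocyte genes. They were above 0 in 2 of 4 Schwann cell, 1 of 3 tendon and 0 of 2 satellite cell genes. Medians were 0.49 for denervation, 0.24 for macrophage and 0.16 for fibroblast genes.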

How the data were processed

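RNA-sequencing of polyadenylated RNA, prepared with Illumina TruSeq reagents after TRIzol extraction, was analysed for 6 TA muscles, 3 in each of 2 groups. The authors deposited raw read counts per gene, which had not been normalised. The submitters' processing notes name bcl2fastq 2.20.0.422 and GRCm38, whereas the aligner, counter and strand setting are not given in the sources used here. No gene in the table had fewer than 60 counts over the 6 libraries, so low genes had been removed before deposit. Library totals of 11987167 to 12710393 counts leave counting error small except for genes such as Sln.

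Counts were scaled by TMM, filtered by expression (13113 of 13226 genes kept) and fitted in R 4.3.3 with group alone as a term, using the quasi-likelihood test of edgeR 4.0.16, with Benjamini-Hochberg adjustment over all genes tested and a threshold of 0.05. The biological coefficient of variation was 15.1%. Shares were compared with exact permutation tests (SciPy 1.17.1). Scripts were tested on simulated data. P-values measure the spread between these muscles. Chi-square per degree of freedom between replicate libraries was 7.71 to 21.7, far above sampling noise, and each was counted as a separate sample.

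Exon lengths, positions and coding sequences came from GENCODE M21, and pairs of coding sequences were aligned with Biopython 1.88. Named genes were the 10 members, Yap1, the 3 highest and 3 lowest related genes by log2 fold change, and the 3 genes most like each of the 2 most variable members. The members and gene lists were chosen with earlier results of these data known. Alternatives were upper-quartile scaling, DESeq2 1.42.0, the likelihood ratio test, limma-voom (limma 3.58.1), other filters, a replicate block and leaving out each library. Leaving out control 1 and Yap-shRNA 3 together was added after seeing the data. The values of 1 related gene are not reported here.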

Additional observations from a re-analysis of the deposited data

How the results depend on the processing

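Of 220 log2 fold changes of 17 named genes (the genes most like Sln and Atp2a2 were given as levels and not refitted) under alternative settings, 206 kept direction and side of the threshold, 12 changed sign and 2, both of Yap1, passed it (-1.10 with both DESeq2 and the likelihood ratio test). The log2 fold change of Atp2a1 turned to 0.00046 with upper-quartile scaling and 0.0020 with DESeq2, and that of Jsrp1 to 0.021 with limma-voom. Sln, at 0.81, was 0.11 with limma-voom. With each library left out the log2 fold changes ranged from -0.072 to 0.058 for Atp2a1, -0.21 to 0.21 for Jsrp1, -0.011 to 0.45 for Atp2a2, -0.53 to 1.32 for Sln and -0.073 to 0.23 for Cacna1s. Without each library the median for Atp2a1, Casq1 and Pvalb lay between -0.22 (without control 1) and -0.077 (without control 2). The median of the 10 genes ranged from -0.17 (without Yap-shRNA 3) to -0.062, and that of Atp2a2, Casq2 and Sln from -0.52 to 0.45 (-0.16 with at least 10 counts in every library). Without control 1 and Yap-shRNA 3 together, added after seeing the data, the median was -0.19 for the 10 genes, -0.28 for Atp2a1, Casq1 and Pvalb, and -0.18 for Atp2a2, Casq2 and Sln. Sln itself stood at -0.18, and Yap1 stood at -1.26 and passed the threshold (adjusted p 0.0375 by the quasi-likelihood test of edgeR). On CPM without TMM scaling 3 of the 10 genes did not overlap between groups, against 1 with it. The causes were not tested. A minimum of 10 counts in every library gave no value for Sln.

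The replicate block, which treats muscles of the same number as a pair, changed no call. It left Casq2 at -0.47 and Sln at 0.39, and turned the log2 fold change of Jsrp1 to 0.020. After subtraction of group means, muscles sharing a number had correlations across genes of -0.0622, 0.225 and -0.2657 for numbers 1 to 3. Muscles of different numbers were not correlated for comparison, so these values cannot show whether muscles of one number were paired. Depth limits genes of low counts, such as Sln (9 to 129 counts in a library), Pln (24 to 55) and Vipr2 (3 to 30).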
